A study of Arabidopsis thaliana and Medicago truncatula and Solanum lycopersicum with 15 samples.

Results

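Wide open domains of the Arabidopsis thaliana genome were defined as regions of at least 1000 bp, from start to end, in the 8 deposited lists of open chromatin from Arabidopsis roots. On chromosomes 1 to 5 the lists held 4430 such regions among 246035 regions in all. Wide regions that overlapped by 1 bp or more were joined over the lists into 2051 loci, whereas all regions joined in the same way gave 61830. The width of a region chose the members, so counts and widths below are descriptions without a test. Tests were made only on position relative to genes and on coverage in lists that had not chosen the loci.

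The lists came from ATAC-seq, in which the Tn5 transposase inserts sequencing adapters into accessible DNA, and each list gives the regions called in 1 sample. All plants were Arabidopsis of the Col-0 background, grown on nutrient agar under 16 h of light and 8 h of dark, and each reaction used 50000 nuclei. There were 4 groups of 2 biological replicates. Hair cell nuclei were captured with streptavidin beads (INTACT, isolation of nuclei tagged in specific cell types) from plants carrying ADF8p:NTF and ACT2p:BirA. Non-hair cell nuclei were captured likewise from plants carrying GL2p:NTF and ACT2p:BirA. Both epidermal cell types were taken from the fully differentiated root zone, above the first mature root hairs. INTACT root tip nuclei came from 1 cm root tips of plants carrying UBQ10p:NTF and ACT2:BirA, so nuclei of all root tip cells were captured. Sucrose root tip nuclei came from 1 cm root tips by lysis and sedimentation, without bead capture, and the transgene of the plants used for them is not given separately. NTF is the tagged nuclear envelope protein and BirA the ligase that biotinylates it, and the promoter before NTF sets which nuclei are captured. The epidermal and root tip groups therefore differ in root zone as well as in cell type, and the effects of these cannot be told apart.

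Most accessible sites in plant genomes are short nucleosome-depleted stretches beside gene starts, where transcription factors bind. A domain much longer than a nucleosome repeat can be a cluster of such sites, a gene body in intense use, or a stretch that a region caller reports as 1 block because neighbouring sites run together. Repeated DNA near centromeres and nuclear copies of organelle DNA are also known to give long blocks in this kind of data.

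Wide regions were a small share of every list, and their number differed more between replicates of the epidermal cells than between the cell types. The hair cell lists held 1284 and 432 wide regions, the non-hair cell lists 1444 and 331, the INTACT root tip lists 461 and 327, and the sucrose root tip lists 71 and 80. Replicate 1 thus held 2.97 times as many as replicate 2 in hair cells and 4.36 times as many in non-hair cells. These regions made up 2.45% and 1.21% of all regions in hair cells, 2.76% and 1.06% in non-hair cells, 1.98% and 1.38% in INTACT root tips, and 0.607% and 0.506% in sucrose root tips. They covered between 3.08% and 10.5% of the length of all regions in a list. The lists also differed in how many regions they held in all, from 11702 in a sucrose root tip list to 52373 in a hair cell list, and the read depth behind them is unknown.

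Hair cells averaged 858 ± 602 wide regions and non-hair cells 887.5 ± 787 (SD, n = 2 each), a log2 ratio of -0.05 against a pooled SD of 1.32 on that scale. Without hair cell replicate 1 that ratio was -1.04, and without non-hair cell replicate 1 it was 1.37. All regions differed 1.05-fold, hair over non-hair. INTACT root tips averaged 394 ± 94.8 and sucrose root tips 75.5 ± 6.36 wide regions (SD, n = 2 each), a 5.22-fold ratio, while all regions differed 1.71-fold between these groups. Epidermal lists averaged 2.22 times the wide regions of INTACT root tip lists, a log2 ratio of 1.15 that was about the size of the pooled SD between replicates (1.10). All regions differed 1.83-fold between these groups.

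Most wide regions lay just above the limit. Of the 4430, 80.7% were under 1500 bp long, 270 reached 2000 bp and 55 reached 3000 bp. The longest was a region of 7625 bp in non-hair cell replicate 1. Widths ran smoothly across the limit: hair cell replicate 1 held 208 regions less than 50 bp above it and 294 less than 50 bp below it, and sucrose root tip replicate 2 held 9 and 21.

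The loci were rarely wide in every list but were open in most. Of the 2051 loci, 928 were wide in a single list, 555 in 2 lists, 233 in 3, 177 in 4, 71 in 5, 37 in 6, 18 in 7 and 32 in all 8. A region of some width lay in 1459 loci (71.1%) in all 8 lists, against 8389 (13.6%) of all joined regions, which are mostly shorter and so have less length in which to meet a region. Just 1 locus had a region in no list other than the one that chose it. The loci had a median length of 1212 bp and together covered 2792 kb, or 2.34% of the chromosomes.

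**Figure D1:**
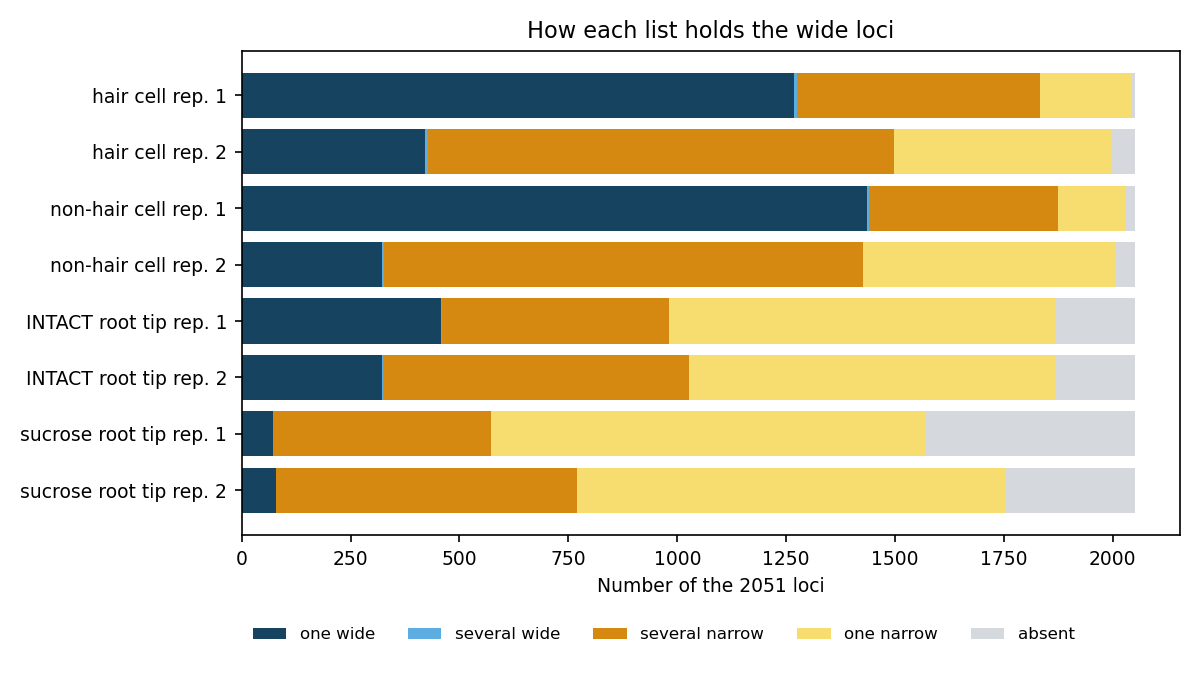
Number of the 2051 wide loci (horizontal axis) held by each list, from hair cells at the top to sucrose root tips at the bottom, as 1 wide region, several wide regions, several narrow regions, 1 narrow region or no region. Absent loci number 7 and 54 in hair cells and 480 and 299 in sucrose root tips, and the dark blue part is longest in replicate 1 of both epidermal cell types.

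Where a list did not hold a locus as wide, it usually held it as narrower regions. Hair cell lists held 1268 and 422 loci as a single wide region, 557 and 1070 as several narrow ones, and 211 and 500 as a single narrow one. Non-hair cell lists held 1436 and 323 as a single wide region, 433 and 1100 as several narrow ones, and 156 and 580 as a single narrow one. In INTACT root tips these counts were 457 and 323 wide, 523 and 703 several narrow, and 888 and 839 single narrow. In sucrose root tips they were 71 and 78 wide, 501 and 690 several narrow, and 999 and 983 single narrow. The remaining loci had several wide regions (at most 8 in a list) or none. The epidermal lists thus more often held a locus in pieces than as 1 short region, and the root tip lists the reverse.

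The pieces lay close together in epidermal lists. Loci held in pieces had a median of 2 pieces in every list. The median gap between pieces was 78 and 102 bp in hair cells, 84 and 114 bp in non-hair cells, 176.5 and 158.5 bp in INTACT root tips, and 202 and 200 bp in sucrose root tips. Pieces covered a median of 84.2% and 74.2% of the locus in hair cells, 84.6% and 69.3% in non-hair cells, 61.4% and 62.2% in INTACT root tips, and 46.4% and 48.3% in sucrose root tips. Pieces in an epidermal list thus covered most of the locus, and in sucrose root tips about as much of it lay outside regions as inside. Wide regions set the extents of the loci. Of the 2051 loci, 1276 and 1440 were wide in replicate 1 of hair and non-hair cells, against 71 and 79 in sucrose root tips. Coverage and gaps therefore depend in part on which lists drew the boundaries.

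Between replicates, the shorter list of wide regions was largely contained in the longer one, except in INTACT root tips. Of the wide regions of hair cell replicate 2, 98.1% (95% Wilson interval 96.4 to 99.1%) met a wide region in replicate 1, and 32.7% (30.2 to 35.3%) of those of replicate 1 met one in replicate 2. In non-hair cells the shares were 95.2% (92.3 to 97.0%) and 21.7% (19.7 to 23.9%). In sucrose root tips they were 75% (64.5 to 83.2%) and 83.1% (72.7 to 90.1%). INTACT root tip replicates shared less, at 42.2% (37.0 to 47.6%) of the wide regions of replicate 2 and 29.7% (25.7 to 34.0%) of those of replicate 1. Intervals cover counting error only. Regions of hair cell replicate 1 that were not wide in replicate 2 were mostly present there as several narrow regions (597) or a single narrow one (263), and 4 were absent.

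The commonest pattern was to be wide in replicate 1 of both epidermal cell types and in no other list, which held for 435 loci. Another 433 loci were wide in non-hair cell replicate 1 alone and 234 in hair cell replicate 1 alone, against 3 in non-hair cell replicate 2 alone and 0 in hair cell replicate 2 alone. INTACT root tip replicates 1 and 2 alone held 172 and 84. All 4 epidermal lists and no root tip list were wide at 109 loci, and both sucrose root tip lists alone at 16. Without both epidermal replicate 1 lists, a setting chosen after seeing the data, 955 loci remained defined and 32 were wide in every list used.

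The 32 loci that were wide in all 8 lists fell into 3 kinds by position. Of these, 9 lay where fewer than 10 protein-coding genes fall within 50 kb of the midpoint, and their median width was 2825.5 bp (the median over loci of each locus's median over lists). A further 6 lay on chromosome 2 between 3.2 and 3.5 Mb, where that chromosome is known to carry a large insertion of mitochondrial DNA, with a median width of 1631 bp. The other 17 lay among 10 or more genes and had a median width of 1432.5 bp. The widest region of the locus was wider on average over the root tip lists than over the epidermal lists in all 9 gene-poor loci and all 6 loci of the insertion. At all 6 loci of the insertion, both sucrose lists were wider than every other list. An INTACT root tip list fell within the range of the epidermal lists at each of them. At chr2:3398357-3401163, for example, INTACT root tips measured 1070 and 1084 bp and epidermal lists 1076 to 1100 bp. Of the 17 gene-rich loci, 13 were wider on average over the epidermal lists.

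**Figure D2:**
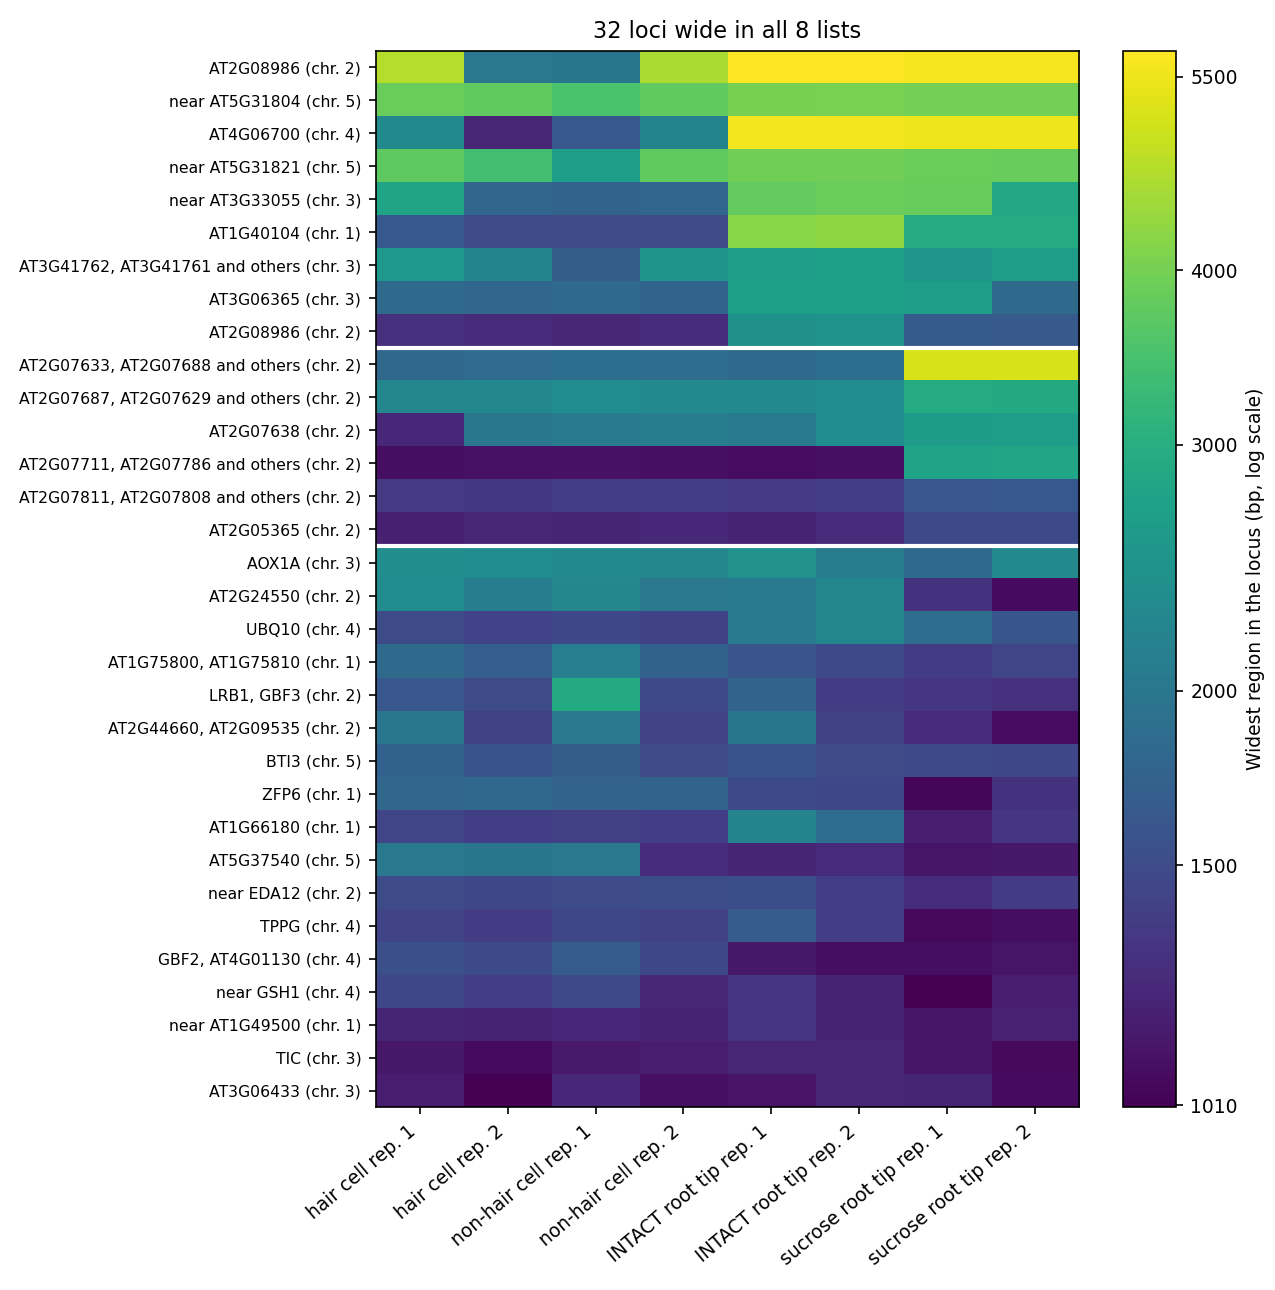
Width in bp of the widest region (colour, log scale) at each of the 32 loci wide in all 8 lists, with lists as columns and loci as rows named by overlapped genes or by the nearest gene. White lines part the 9 gene-poor loci (top), the 6 loci of the mitochondrial insertion on chromosome 2 (middle) and the 17 gene-rich loci (bottom); the gene-poor loci are widest in the root tip columns.

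Among the 32 loci wide in all 8 lists, the gene-poor ones included those of largest mean width. The locus chr2:3618331-3624073 of the TAIR10 build overlapped AT2G08986 and had its widest region at 4740 and 2027 bp in hair cells, 1982 and 4614 bp in non-hair cells, 5725 and 5743 bp in INTACT root tips, and 5605 and 5591 bp in sucrose root tips. The locus chr4:3950421-3956033, at the pseudogene AT4G06700, measured 2323 and 1211 bp in hair cells, 1621 and 2197 bp in non-hair cells, 5576 and 5587 bp in INTACT root tips, and 5480 and 5500 bp in sucrose root tips. At both, the root tip lists gave nearly the same width in all 4 samples, and the epidermal lists were narrower without overlap. The locus chr1:15081791-15086061 at AT1G40104 was 1625 and 1504 bp in hair cells, 1502 and 1509 bp in non-hair cells, 4207 and 4271 bp in INTACT root tips, and 2941 and 2935 bp in sucrose root tips.

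A pair of neighbouring loci on chromosome 5 with no protein-coding gene within 50 kb was at least 2655 bp wide in every sample. The locus chr5:11726035-11730092 measured 3868 and 3756 bp in hair cells, 3508 and 3760 bp in non-hair cells, 4029 and 4058 bp in INTACT root tips, and 3986 and 3998 bp in sucrose root tips. Beside it, chr5:11730252-11734204 measured 3737 and 3379 bp in hair cells, 2655 and 3758 bp in non-hair cells, 3929 and 3941 bp in INTACT root tips, and 3889 and 3820 bp in sucrose root tips. The widest list exceeded the narrowest by a factor of 1.16 at the first of these, and of 1.48 at the second, where non-hair cell replicate 1 was lowest. The locus chr3:13588815-13592734, also without an overlapped gene, measured 2786 and 1787 bp in hair cells, 1756 and 1781 bp in non-hair cells, 3789 and 3869 bp in INTACT root tips, and 3844 and 2865 bp in sucrose root tips.

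Ribosomal RNA genes were also among them. The locus chr3:14194978-14197695 overlapped AT3G41768, annotated as rRNA, and the microRNA gene MIR5642a. Its widest region was 2555 and 2205 bp in hair cells, 1686 and 2483 bp in non-hair cells, 2671 and 2705 bp in INTACT root tips, and 2516 and 2667 bp in sucrose root tips. Of the 4 rRNA genes annotated on the chromosomes, 3 had a boundary in a locus wide in 2 or more lists. These genes have many near-identical copies, so reads placed here can come from other copies.

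In the mitochondrial insertion, the sucrose lists stood apart. Sucrose root tip lists held 22 and 22 wide regions there, which was 31.0% and 27.5% of all their wide regions, and every other list held 6. At chr2:3330766-3335943 the widest region was 1801 and 1854 bp in hair cells, 1885 and 1872 bp in non-hair cells, 1833 and 1884 bp in INTACT root tips, and 5169 and 5178 bp in sucrose root tips. At chr2:3312430-3315367 it was 2260 and 2273 bp in hair cells, 2346 and 2309 bp in non-hair cells, 2303 and 2343 bp in INTACT root tips, and 2938 and 2903 bp in sucrose root tips. The 6 lists other than sucrose gave like widths at both loci. Wide regions on the organelle sequences themselves numbered 9 and 8 in INTACT root tip lists and 13 and 13 in sucrose root tip lists, and the epidermal lists held no region there. Reads from the organelle and from its nuclear copy cannot be told apart in these lists.

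Wide in both sucrose root tip lists and not wide in either INTACT root tip list were 16 loci. All of them lay in or just past the window on chromosome 2 from 3.2 to 3.5 Mb. In this window 15 loci were wide in exactly 2 lists. Every list other than sucrose held only 6 wide regions there, at the 6 loci wide in all 8 lists, so these 2 lists were the sucrose ones. Of the 3 loci with the largest mean width, 2 lay in the window and 1 began just past its end. The 16 loci were 0.047% of all joined regions of these 4 lists, a share that is no baseline, since only wide loci can meet the rule. The locus chr2:3263914-3265654 at AT2G07621 measured 292 and 326 bp in INTACT root tips, in pieces, and 1716 and 1730 bp in sucrose root tips. The locus chr2:3271870-3273580 measured 343 and 380 bp in INTACT root tips and 1711 and 1669 bp in sucrose root tips, and chr2:3500496-3502120 measured 393 and 484 bp in INTACT root tips and 1605 and 1614 bp in sucrose root tips. The rule that chose these loci sets the groups on either side of the limit, so their separation is no result.

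The gene-rich loci that were wide in all 8 lists included AOX1A and TIC. AOX1A encodes the alternative oxidase of mitochondria, a classic target of mitochondrial stress signalling. Its locus, chr3:7908380-7910814, measured 2367 and 2342 bp in hair cells, 2318 and 2269 bp in non-hair cells, 2435 and 2108 bp in INTACT root tips, and 1829 and 2300 bp in sucrose root tips. Next to it, the locus of TIC, a regulator of the circadian clock, was 1127 and 1062 bp in hair cells, 1131 and 1161 bp in non-hair cells, 1218 and 1214 bp in INTACT root tips, and 1113 and 1050 bp in sucrose root tips. The TIC locus differed by a factor of at most 1.16 over the 8 lists.

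Loci of some G-box binding bZIP factors and reticulon-like proteins are described next, picked out after their values were seen and with no test. The locus of GBF2 was 1538 and 1484 bp in hair cells, 1674 and 1468 bp in non-hair cells, 1129 and 1076 bp in INTACT root tips, and 1072 and 1112 bp in sucrose root tips. The locus shared by GBF3 and LRB1, a ubiquitin ligase subunit of light signalling, was 1616 and 1510 bp in hair cells, 2929 and 1474 bp in non-hair cells, 1750 and 1359 bp in INTACT root tips, and 1322 and 1284 bp in sucrose root tips. GBF2 was thus wider in all 4 epidermal lists than in any root tip list, and GBF3 was not. Of the 6 genes examined for G-box factors, GBF1, GBF4, GBF6 and bZIP2 lay in no wide locus. Reticulon-like proteins shape the endoplasmic reticulum. Of 5 of their genes examined, which need not be the whole family, BTI3 was wide in all 8 lists, BTI1 and BTI2 in 7, and RTNLB3 and RTNLB13 in none. Over all protein-coding genes, 6.92% had a boundary in a wide locus.

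The BTI3 locus, chr5:16634652-16636417, measured 1726 and 1586 bp in hair cells, 1688 and 1501 bp in non-hair cells, 1587 and 1513 bp in INTACT root tips, and 1482 and 1459 bp in sucrose root tips. The loci that missed all 8 lists by 1 included JAZ1, a repressor of jasmonate signalling. JAZ1 measured 2423 and 2089 bp in hair cells, 3083 and 2442 bp in non-hair cells, 2306 and 1707 bp in INTACT root tips, and 1849 and 903 bp in sucrose root tips, so it fell short of the limit in sucrose root tip replicate 2. MIR164c, a microRNA gene that restrains CUC transcripts, NCED6, an enzyme gene of abscisic acid synthesis, and NF-YB2, a subunit of a CCAAT-binding factor, were also wide in 7 lists. The last 3 genes were likewise named after their values were seen.

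All 4 genes whose promoters are named in the transgenes lay in wide loci, and for GL2 and ADF8 only the line that carries the promoter was wide. GL2, the homeodomain factor that sets non-hair fate, drives the tag in the non-hair line. At chr1:30034391-30037014 the widest region was 368 and 254 bp in hair cells and 2603 and 1891 bp in non-hair cells, and no root tip list had a region there. ADF8, an actin-depolymerising factor of root hairs, drives the tag in the hair line. At chr4:280236-281486 the widest region was 1251 and 1210 bp in hair cells, 396 and 350 bp in non-hair cells, 243 and 0 bp in INTACT root tips, and 0 and 140 bp in sucrose root tips, where 0 means no region. Each gene was thus wide in both lists of the line that carries its promoter and in no other list.

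UBQ10, a polyubiquitin gene whose promoter drives the tag in the root tip line, was wide in all 8 lists. At chr4:2716462-2718707 it measured 1510 and 1427 bp in hair cells, 1471 and 1417 bp in non-hair cells, 2054 and 2246 bp in INTACT root tips, and 1882 and 1608 bp in sucrose root tips. All 4 root tip lists were wider there than any epidermal list. ACT2, an actin gene whose promoter drives BirA in every INTACT line, was wide in 3 lists. At chr3:6474030-6475652 it measured 918 and 918 bp in hair cells, 1042 and 954 bp in non-hair cells, 1381 and 1572 bp in INTACT root tips, and 957 and 896 bp in sucrose root tips. Reads from the promoter copy in a transgene and from the native gene cannot be told apart in these lists, so the share of these widths that belongs to the native gene was not tested.

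**Figure D3:**
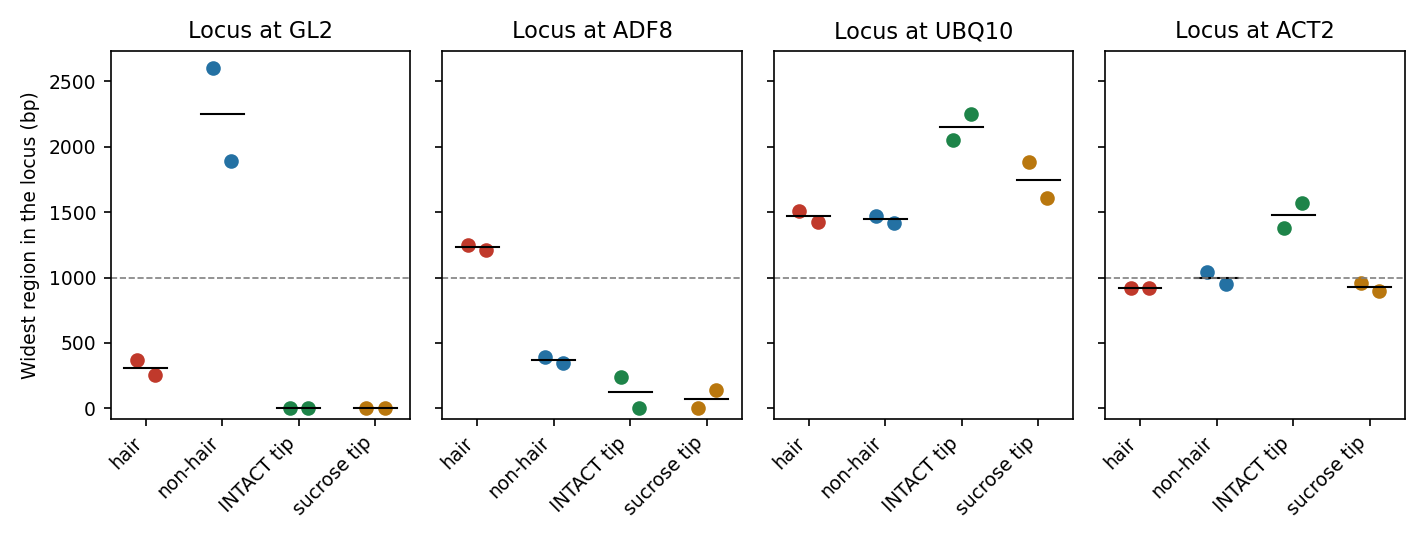
Width in bp of the widest region in the loci at GL2, ADF8, UBQ10 and ACT2, whose promoters are used in the transgenes, for each list (points, 2 replicates a group) with the group mean (bars); the dashed line is the limit of 1000 bp. GL2 stands at 2603 and 1891 bp in non-hair cells and ADF8 at 1251 and 1210 bp in hair cells, and the other lists lie under the limit at both genes.

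Between the epidermal cell types, 21 loci were wide in both hair cell lists and in neither non-hair cell list. These were 0.0362% of all joined regions, a share that is no baseline, since only wide loci can meet the rule. The 3 of largest mean width lay 517 bp from MYB305, at AT5G23850, and at MEB2 with SS1. The locus near MYB305, chr3:8808416-8810493, measured 1369 and 1524 bp in hair cells and 905 and 900 bp in non-hair cells. The locus at AT5G23850 measured 1670 and 1122 bp in hair cells and 861 and 556 bp in non-hair cells, and that at MEB2 and SS1 measured 1490 and 1297 bp in hair cells and 865 and 834 bp in non-hair cells. In each, the non-hair cell lists held regions that were shorter and not absent. INTACT root tip replicate 1 was also wide near MYB305 (1389 bp) and at MEB2 and SS1 (1363 bp).

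The opposite rule held for 4 loci, which were 0.00689% of all joined regions and again the only ones that could meet it were wide loci. Besides GL2 these included chr1:2872244-2873625 at ERD6, a sugar transporter gene, with 648 and 644 bp in hair cells and 1382 and 1250 bp in non-hair cells. INTACT root tip replicate 1 was wide at ERD6 as well (1046 bp). They also included chr1:7698559-7699679 near DREB26, an AP2-type factor gene, with 981 and 940 bp in hair cells and 1121 and 1074 bp in non-hair cells. The DREB26 locus crossed the limit by little in either direction. No wide locus had a region in both hair cell lists and none in non-hair cells, where 0.882% of all joined regions did, and 1 had a region in both non-hair cell lists and none in hair cells, where 0.269% did. Loci wide in a list of the other cell type cannot meet these rules, so the shares cannot be compared directly.

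All 4 epidermal lists were wide and no root tip list was wide at 109 loci. Of all joined regions 0.175% met the rule, which only wide loci can meet, so that share is no baseline. In the locus of LHCB4.3, a light-harvesting protein gene, no root tip list held any region. At chr2:16745207-16746518 it measured 1312 and 1107 bp in hair cells and 1180 and 1122 bp in non-hair cells. A region in all 4 epidermal lists and in no root tip list occurred at 44 of the 2051 loci (2.15%), against 9.82% of all joined regions. These shares cannot be compared directly, because loci wide in a root tip list cannot meet the rule and long loci have more length in which to meet a region.

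Wide in all 4 root tip lists and in no epidermal list were 4 loci, or 0.00647% of all joined regions, a rule that only wide loci can meet. A region in all 4 root tip lists and in no epidermal list occurred at 2 wide loci, where 0.0275% of all joined regions had one. Loci wide in an epidermal list cannot meet this rule, so these too cannot be compared directly. The widest locus of the 4, chr3:14093246-14097595, overlapped AT3G33530 and ARP6, a subunit of the complex that deposits histone H2A.Z. It measured 726 and 615 bp in hair cells, 729 and 725 bp in non-hair cells, 4326 and 4292 bp in INTACT root tips, and 4328 and 3295 bp in sucrose root tips. Only 3 protein-coding genes lie within 50 kb of it. The locus chr3:14207488-14208945 measured 867 and 229 bp in hair cells, 234 and 274 bp in non-hair cells, 1383 and 1458 bp in INTACT root tips, and 1130 and 1123 bp in sucrose root tips. The locus chr4:3993581-3995064, at AT4G06714, measured 718 and 281 bp in hair cells, 167 and 387 bp in non-hair cells, 1095 and 1484 bp in INTACT root tips, and 1148 and 1142 bp in sucrose root tips. These 3 loci also lie where fewer than 10 genes fall within 50 kb.

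Between the root tip preparations, 71 loci were wide in both INTACT lists and in neither sucrose list. They were 0.209% of all joined regions, and only wide loci can meet that rule, so the share is no baseline. A region of any width in both INTACT lists and in no sucrose list occurred at 85 wide loci (4.14%), where 5.06% of all joined regions had one. The reverse occurred at 0 loci, against 0.315%. Loci wide in a list of the other preparation cannot meet these rules, so the shares cannot be compared directly. The locus chr4:4008281-4011776 measured 3410 and 3005 bp in INTACT root tips and 708 and 722 bp in sucrose root tips. At chr5:21316828-21320664 in AT5G52530 the values were 1076 and 3837 bp in INTACT root tips and 493 and 478 bp in sucrose root tips, so the INTACT replicates themselves differed. At chr1:12936083-12938199, over MLP165, they were 1983 and 1803 bp in INTACT root tips and 348 and 366 bp in sucrose root tips.

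Some loci were long in a single sample. The longest locus of chromosome 5, chr5:16395684-16400575 at AT5G40910, measured 4892 bp in INTACT root tip replicate 2 and 732 bp in replicate 1, against 446 and 339 bp in hair cells, 413 and 351 bp in non-hair cells, and 381 and 352 bp in sucrose root tips. It was thus a single wide region in 1 list and short regions in the other lists. Likewise chr2:17218173-17220818 was 2646 bp wide in non-hair cell replicate 1 and between 700 and 921 bp at its widest in the other 7 lists. The longest locus of all, chr3:22512904-22520529 over AT3G60920 and neighbouring pseudogenes, measured 7620 and 5265 bp in hair cells, 7625 and 5213 bp in non-hair cells, 4026 and 877 bp in INTACT root tips, and 4018 and 2789 bp in sucrose root tips. Only INTACT root tip replicate 2 fell under the limit there.

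In lists that had not chosen them, wide loci were covered further than the other joined regions, a difference that was not tested. The 668 loci defined from root tip lists alone were covered by 81.3% and 70.6% in hair cells and by 77.3% and 68.7% in non-hair cells. The group means were 76.0 ± 7.63% and 73.0 ± 6.08% (SD, n = 2 each), a difference of 2.93 percentage points that was within the spread between replicates (exact two-sided permutation test over lists, p = 0.667). That difference was -2.47 points without hair cell replicate 1 and -1.37 points without non-hair cell replicate 2. The 1755 loci defined from epidermal lists alone were covered by 51.4% and 51.3% in INTACT root tips and by 28.2% and 34.7% in sucrose root tips. The group means were 51.3 ± 0.0435% and 31.5 ± 4.60% (SD, n = 2 each), a difference of 19.8 points with no overlap (exact two-sided permutation test, p = 0.333). With 2 lists a group 0.333 is the smallest p this test can give, and Benjamini-Hochberg adjustment over the 4 tests made here turned these exact p values into 0.667 and 0.444. The ratio of INTACT to sucrose coverage was 1.63 at wide loci, 1.93 at the other joined regions and 2.22 over the whole chromosomes, and no test was made between these ratios. Other joined regions were covered by 72.4% and 58.9% in hair cells, 70.9% and 54.5% in non-hair cells, 35.4% and 28.4% in INTACT root tips, and 14.0% and 19.0% in sucrose root tips. These other regions are all those of the choosing lists that met no wide region, also where a single list held them. The sets thus differ in more than width.

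**Figure D4:**
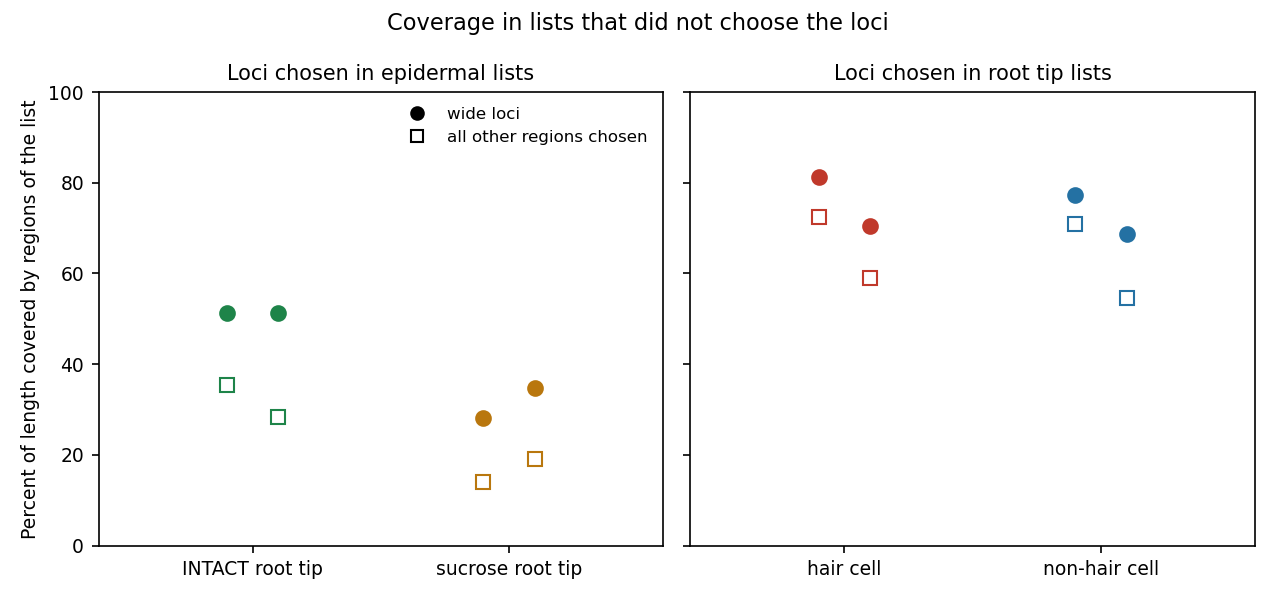
Percent of the length of wide loci (filled circles) and of all other joined regions (open squares) covered by the regions of each list, for lists that did not choose the loci: INTACT and sucrose root tips on loci chosen in epidermal lists, and hair and non-hair cells on loci chosen in root tip lists. INTACT root tips lie at 51.4 and 51.3% and sucrose root tips at 28.2 and 34.7% of the wide loci, and the wide loci lie above the other regions in every list.

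Wide regions had fewer protein-coding genes around them than the shorter regions of the same list in 7 of 8 lists, but the difference did not pass the threshold after adjustment. The number of protein-coding genes within 50 kb of the midpoint averaged 23.2 ± 2.72 for wide regions and 25.5 ± 0.759 for regions under 1000 bp (SD over 8 lists). The difference, wide minus narrow, was -2.30 ± 2.18 genes (exact two-sided sign-flip permutation test over the 8 lists, p = 0.0234, Benjamini-Hochberg adjusted p = 0.0938, threshold 0.05). It was -0.22 and -0.89 genes in hair cells, 0.43 and -1.52 in non-hair cells, -2.28 and -3.63 in INTACT root tips, and -5.82 and -4.46 in sucrose root tips. The difference was thus larger in size in all 4 root tip lists than in any epidermal list. The 8 lists are replicate pairs and share loci, so they are not independent and the p value can be too small.

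**Figure D5:**
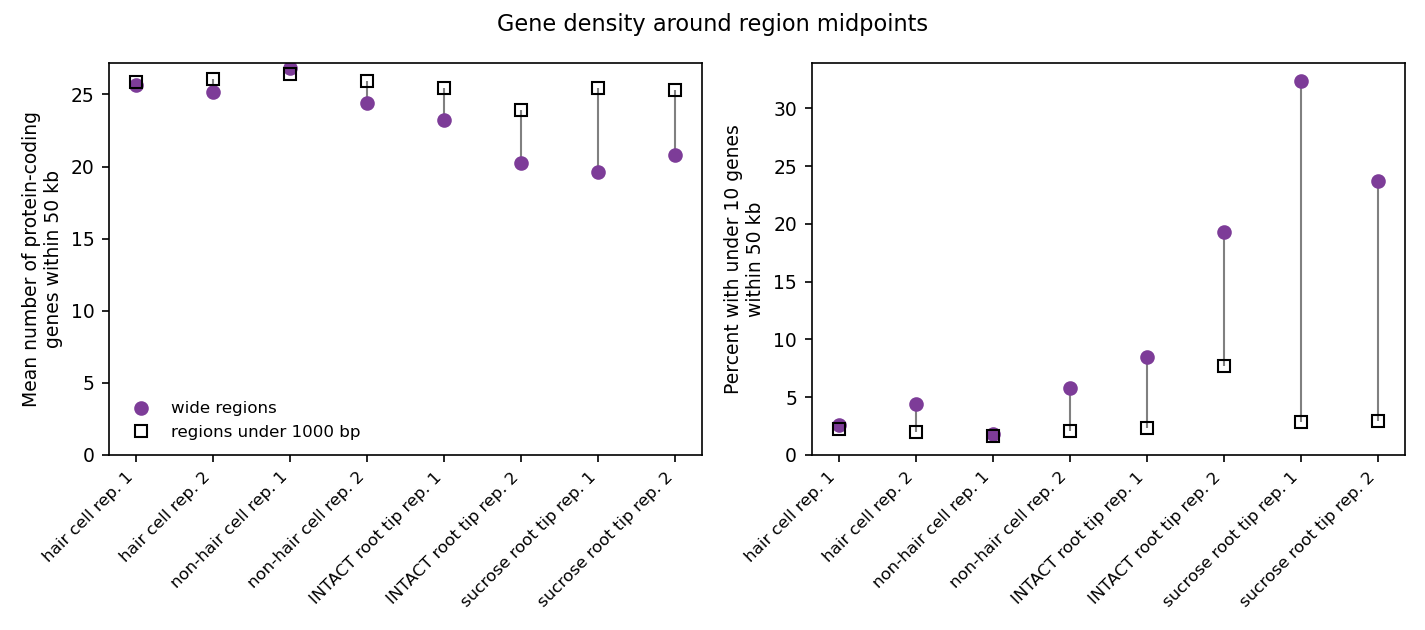
Mean number of protein-coding genes within 50 kb of the midpoint (left) and percent of regions with fewer than 10 such genes (right), for wide regions (filled circles) and regions under 1000 bp (open squares) of each list. The lines join both kinds of a list. In sucrose root tips 32.4 and 23.8% of wide regions lie in gene-poor surroundings (23 and 19 regions), and in epidermal lists 1.80 to 5.74% (19 to 33 regions).

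The share of wide regions in gene-poor surroundings, with fewer than 10 protein-coding genes within 50 kb, was 2.57% and 4.40% in hair cells, 1.80% and 5.74% in non-hair cells, 8.46% and 19.3% in INTACT root tips, and 32.4% and 23.8% in sucrose root tips. As counts these were 33 and 19 in hair cells, 26 and 19 in non-hair cells, 39 and 63 in INTACT root tips, and 23 and 19 in sucrose root tips. The sucrose counts lay within the range of the epidermal counts, but among only 71 and 80 wide regions. For regions under 1000 bp it was 2.23% and 1.97% in hair cells, 1.62% and 2.03% in non-hair cells, 2.30% and 7.70% in INTACT root tips, and 2.85% and 2.96% in sucrose root tips. INTACT root tip replicate 2 stood apart from its partner in both. Among loci, 28 of 928 (3.02%) of those wide in a single list were gene-poor, against 9 of 32 (28.1%) of those wide in all 8.

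Wide midpoints lay within 500 bp of an annotated gene boundary less often than shorter ones in 6 of 8 lists. The midpoint of a region of at least 1000 bp lies at least 500 bp from its own edges. Width chose the members, so this measure depends in part on that choice. The share averaged 57.7 ± 7.24% for wide regions and 65.9 ± 5.0% for regions under 1000 bp (SD over 8 lists), a difference of -8.24 ± 10.2 points (exact two-sided sign-flip permutation test over 8 lists, p = 0.0547, Benjamini-Hochberg adjusted p = 0.109). It was 1.30 and -4.45 points in hair cells, 2.58 and -4.97 points in non-hair cells, -17.7 and -0.25 points in INTACT root tips, and -23.6 and -18.9 points in sucrose root tips. The midpoint of a wide region lay inside a gene in 61.4% and 53.5% of hair cell regions, 63.8% and 50.8% of non-hair cell regions, 21.7% and 62.1% of INTACT root tip regions, and 49.3% and 50% of sucrose root tip regions. For regions under 1000 bp this share was 36.1% in INTACT root tip replicate 1 and 63.4% in replicate 2, against 36.3% and 37.5% in sucrose root tips. It was 57.2% and 47.1% in hair cells and 58.7% and 47.2% in non-hair cells, so INTACT replicate 2 was highest of all lists. With a limit of 1500 bp in place of 1000 bp, both position differences passed the threshold, at -21.3 points and -5.66 genes (exact sign-flip permutation, adjusted p = 0.0156 for each). With a limit of 800 bp they were -3.72 points and -1.16 genes (exact sign-flip permutation, adjusted p = 0.444 and 0.1875). The lists are replicate pairs that share loci, so the p values treat them as more independent than they are.

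Of 261 loci with no overlapped gene, 142 were wide in a single list. The 5 chromosomes held between 15.3 loci per Mb (chromosome 3) and 18.6 (chromosome 1), and 12 of the 32 loci wide in all 8 lists lay on chromosome 2. Neighbouring loci were a median of 30.6 kb apart, and 144 neighbours lay under 1000 bp apart.

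By kind of gene, 1100 of 27444 protein-coding genes (4.01%) had a boundary in a locus wide in 2 or more lists, where lists of genes with known roles can be set against this share. Small nuclear RNA genes of the spliceosome stood at 11 of 82 (13.4%), transfer RNA genes at 35 of 625 (5.60%), microRNA genes at 6 of 326 (1.84%), pseudogenes at 17 of 3917 (0.434%) and small nucleolar RNA genes at 0 of 287. Among the spliceosomal genes, U4.3p and U2.7 were wide in 5 lists and U1.7 in 4. No test was made of these shares.

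Of 86 matched genes in the lists, which cover root and stress biology and constitutive genes, 11 (12.8%) had a boundary in a locus wide in 2 or more lists. These 11 include GL2, ADF8, UBQ10 and ACT2, whose promoters are used in the transgenes, so the share is not that of native genes alone. For epidermal fate the number was 1 of 10 (GL2), for root hair growth 1 of 11 (ADF8), and for the root meristem 0 of 11. Regions of any width lay within 500 bp of 9 and 8 of the 11 root hair genes in hair cell lists, 10 and 8 in non-hair cell lists, 7 and 8 in INTACT root tip lists, and 3 and 5 in sucrose root tip lists. Over all protein-coding genes, the share with such a region was 81.8% and 72.4% in hair cells, 81.6% and 67.6% in non-hair cells, 55.4% and 48.4% in INTACT root tips, and 34.1% and 42.5% in sucrose root tips. No test was made of these counts. For epidermal fate the counts of 10 were 6 and 5 in hair cells, 9 and 4 in non-hair cells, 4 and 1 in INTACT root tips, and 2 and 2 in sucrose root tips.

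Auxin transport had 2 of 11 genes in such loci, LAX3 (influx) and ABCB4 (transport at the plasma membrane), both wide only in replicate 1 of the epidermal cell types. Widths of listed genes are those of the widest region within 500 bp of a gene boundary. LAX3 measured 1000 and 646 bp in hair cells and 1005 and 602 bp in non-hair cells, with 403 bp or less in root tips. PRR7, a repressor of the clock, was the only 1 of 12 clock genes, with 1216 and 781 bp in hair cells, 1234 and 674 bp in non-hair cells, and 596 to 753 bp in root tips. PIF5, a phytochrome-interacting factor listed as PIL6, was wide in all 4 epidermal lists, at 1248 and 1117 bp in hair cells and 1262 and 1167 bp in non-hair cells, against 908 and 695 bp in INTACT root tips and 540 and 595 bp in sucrose root tips.

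Stress response had 3 of 14. ZAT10, a zinc finger repressor listed as STZ, measured 1690 and 1648 bp in hair cells, 1659 and 1590 bp in non-hair cells, 652 and 1370 bp in INTACT root tips, and 561 and 516 bp in sucrose root tips. ERF5, an ethylene response factor, measured 1154 and 1111 bp in hair cells, 1281 and 691 bp in non-hair cells, 585 and 545 bp in INTACT root tips, and 285 and 366 bp in sucrose root tips. JAZ1, given above, was the third. ZAT10 and ERF5 were wider in every epidermal list than in any sucrose list. Constitutive genes had 2 of 7, ACT2 and UBQ10, whose promoters are both used in the transgenes.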

How the data were processed

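The deposited lists give the start and end in bp of each open region called in 1 Arabidopsis sample, with no score, count or signal, per the file headers and columns. Reads had been aligned and regions called by the authors before deposit; the submitters' processing notes name Bowtie2, HOMER, TAIR10 and IRGSP-1.0 with no role or version. A value of 150 in the lists' names is not explained, and gaps of 150 bp or less made up 4.21% to 16.7% of gaps between neighbouring regions. Depth is unknown, so no depth-based interval was given. Genomic DNA and the other species are not analysed here.

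Regions of at least 1000 bp on chromosomes 1 to 5 were joined over lists at 1 bp of overlap. Members, gene lists and alternatives were chosen with earlier results of these data known. Genes came from the RefSeq table of TAIR10.1, whose nuclear sequence is that of TAIR10; 42.1% of midpoints lay within 200 bp of a gene boundary. The table gives no strand, so the planned tests on gene starts used the nearest boundary, start or end, and planned promoter motifs were not run. Of the listed genes EF1A and CYCB1-1 were unmatched. Coverage differences were tested by exact permutation of lists and position by exact sign flips, with Benjamini-Hochberg adjustment over 4 tests. Named loci were the 10 widest of those wide in all 8 lists, the longest per chromosome, up to 3 per group contrast, and up to 3 most often held in pieces. Scripts were tested on simulated lists, where 54 of 54 quantities were recovered over 2000 simulated loci. Computation ran in Python 3.11.15 with SciPy 1.17.1 for tests, pandas 2.3.3 and NumPy 2.4.6 for tables, and Matplotlib 3.10.9 for figures. Alternatives included other width limits, joins at 50% overlap, leaving out each list and leaving out the mitochondrial insertion.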

Additional observations from a re-analysis of the deposited data

Results flagged for a closer look

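Outside chromosomes 1 to 5, the root tip lists held wide regions on the organelle sequences, which lie outside the loci compared above, though their counts are given beside the mitochondrial insertion. There were 9 and 8 in INTACT root tip lists and 13 and 13 in sucrose root tip lists, and the longest of each list was between 84493 and 84542 bp. The epidermal lists held 0 regions of any width on these sequences. Whether organelle regions were left out of the epidermal lists before deposit is not given in the sources used here.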

How the results depend on the processing

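The counts of loci depended on the limit. At 800 bp there were 4004 loci, 76 wide in every list, 1562 in a single list and 2571 with a region in all lists; at 1500 bp these were 417, 10, 204 and 346. The log2 ratio of INTACT over sucrose wide regions was 1.61 at 1500 bp and 2.86 without the mitochondrial insertion. At 1500 bp the position differences were -21.3 points and -5.66 genes (exact sign-flip permutation, adjusted p = 0.0156 each). Within 250 bp of a boundary the difference was -13.9 points (exact sign-flip permutation, adjusted p = 0.0312). Within 1000 bp of a boundary it was -3.61 points, and with a limit of 800 bp -3.72 points (exact sign-flip permutation, adjusted p = 0.444 each). The share near a boundary depends in part on width, the lists are not independent, and the cause was not tested. Without both epidermal replicate 1 lists, an alternative chosen after seeing the data, there were 955 loci, 561 wide in a single list and 807 with a region in every list used. Of 48 alternatives that kept every list or left out both of those, 32 left the result unchanged, 13 moved it and 3 brought it past the threshold. For counts, unchanged means within a set fold range, and for log2 ratios within the pooled SD between replicates. For tested results it means the same direction and side of the threshold. Leaving out 1 list gave 1624 to 2051 loci, 32 to 44 wide in every list used, 819 to 1185 in a single list, and 1237 to 1605 with a region in every list used. It gave log2 ratios of 2.11 to 2.61 for INTACT over sucrose, -1.04 to 1.37 for hair over non-hair and 0.79 to 1.42 for epidermal over INTACT. It gave coverage differences of -2.47 to 8.32 points for hair minus non-hair, reversed without hair cell replicate 1 (-2.47) or non-hair cell replicate 2 (-1.37), and of 16.6 to 23.1 points for INTACT minus sucrose. Position differences ran from -9.78 to -6.05 points and from -2.69 to -1.80 genes. A contrast of the position differences, 4 epidermal against 4 root tip lists, was added after the values were seen and supports nothing. Its exact permutation p was 0.0286 for genes (adjusted 0.0571), the smallest possible and fixed by the separation already seen, and 0.0857 for boundaries (adjusted 0.0857). With the replicate number as a replicate block the coverage differences stayed at 2.93 and 19.8 points, with an exact permutation p of 0.5 for each, the smallest that 2 pairs allow; the labels do not tie the numbers to a shared batch.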

Other observations

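A pair of genes for aspartate kinase-homoserine dehydrogenase, the enzyme at the head of the synthesis of threonine and methionine, both lay in wide loci. AK-HSDH I was wide in 5 lists and AK-HSDH II in 6, where 6.92% of all protein-coding genes had a boundary in a wide locus. The locus of EBF1, an F-box protein gene of ethylene signalling, was wide in 6 lists, at 2026 and 1597 bp in hair cells, 2070 and 1140 bp in non-hair cells, 1186 and 1035 bp in INTACT root tips, and 684 and 938 bp in sucrose root tips. The locus of PHYB, the red light receptor, was wide in 5 lists, at 1588 and 1114 bp in hair cells, 1945 and 1095 bp in non-hair cells, 1967 and 988 bp in INTACT root tips, and 871 and 943 bp in sucrose root tips. Every epidermal list was above the limit at both genes and both sucrose lists were under it. These genes were picked after their values were seen, and no test was made.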
